A study of Mus musculus with 6 samples.

Results

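The genes described here are 10 genes of antioxidant defence in mouse LSK cells, which are bone marrow cells without lineage markers but with Sca1 and c-Kit on their surface, the fraction of hematopoietic stem and progenitor cells. They were picked by symbol from the 54532 genes of the expression table, and all 10 were found. *Sod1*, *Sod2*, *Cat*, *Gpx1* and *Prdx1* encode enzymes that remove superoxide or peroxides, *Txnrd1*, *Gclc* and *Gclm* encode enzymes that supply reducing power and glutathione, *Hmox1* encodes the inducible haem oxygenase, and *Nfe2l2* encodes the transcription factor NRF2. RNA-seq was compared between 3 libraries of *Myh9*fl/fl:*Mx1-cre* mice (cKO) and 3 libraries of littermates that carried the floxed allele without cre (CTRL), all C57BL/6. *Myh9* encodes the heavy chain of non-muscle myosin IIA. Both groups received poly I:C at 5 mg/kg body weight, in 2 doses per the labels and in 3 per the methods, and LSK cells were sorted 4 days after the first injection, 100000 cells per library. *Mx1-cre* is switched on by interferon, which poly I:C induces, and also acts in tissues outside the blood system. Mice were genotyped at 4 to 5 weeks of age. How many mice gave each set of cells is not stated, so the p-values measure the spread between these samples.

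Superoxide leaks from the mitochondrial respiratory chain and is made on purpose by NADPH oxidases. Superoxide dismutases turn it into hydrogen peroxide, which catalase, glutathione peroxidases and peroxiredoxins then reduce, with glutathione and thioredoxin recycled at the cost of NADPH. NRF2 is held by KEAP1, a substrate adaptor of the CUL3 ubiquitin ligase, and is degraded until oxidants or electrophiles modify KEAP1. NRF2 then pairs with small MAF proteins on antioxidant response elements, and BACH1 competes for the same elements until haem displaces it. Hematopoietic stem cells are known for low levels of reactive oxygen species, which rise when the cells divide and differentiate.

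Each library held 17571544 to 19894562 reads on genes, and Pearson correlations of log2 values between libraries were 0.991 to 0.993 within groups and 0.974 to 0.977 between groups. *Myh9*, the deleted gene, was measured at 23.0, 22.6 and 22.0 FPKM (fragments per kilobase of gene length, scaled to the size of the library) in CTRL libraries and at 18.4, 20.0 and 17.7 FPKM in cKO libraries. All 3 cKO libraries were below all CTRL libraries, with a log2 fold change (log2FC, cKO over CTRL on the scale of log2(FPKM + 1)) of -0.26 (SE 0.049, adjusted p = 0.00642). The floxed part is exon 1 and the value covers the whole gene, so that reads from the other exons were counted as well. Exon 1 alone was not measured, and neither was the share of cells with the deletion in these libraries. Incomplete deletion and reads from the other exons cannot be told apart here. The call was lost in 1 of 18 alternatives, with trends of GC content and length removed together with a replicate block (log2FC -0.13, adjusted p = 0.0720). The LSK markers *Ly6a* (Sca1) and *Kit* were detected in both groups, *Ly6a* at 95.4 and 89.5 FPKM and *Kit* at 23.9 and 21.5 FPKM in CTRL and cKO. The mature myeloid markers *Ly6g* and *Itgam* were at 0.778 and 1.15 FPKM in CTRL and at 0.897 and 0.706 FPKM in cKO. *Mpo*, a granule gene of myeloid progenitors, was at 3331 FPKM in CTRL and 1953 FPKM in cKO.

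Of the 10 antioxidant genes, 4 were higher in cKO LSKs, 1 was lower and 5 did not pass an adjusted p of 0.05. *Sod1* and *Sod2*, the cytosolic and the mitochondrial superoxide dismutase, rose by 23.4% and 25.7% of the mean FPKM, *Prdx1* rose by 9.24%, and *Hmox1* rose from a low level to 2.08 times the CTRL mean. *Gpx1*, the most abundant of the 10, fell by 7.31%. *Nfe2l2*, *Cat*, *Txnrd1*, *Gclc* and *Gclm* were not called. Among all 11552 genes tested, 40.5% were called, 19.9% higher and 20.6% lower. The CTRL and cKO libraries were separate for 7 of the 10 genes, against 54% of all genes tested. None of the 10 changed by over 2-fold with an unadjusted p below 0.05, as 2.13% of all genes tested did. *Hmox1* came nearest, with a log2 fold change of 0.78 on log2(FPKM + 1), although its ratio of mean FPKM was 2.08. The median log2FC of the 10 genes was 0.072, beside -0.0096 for all genes tested. Their median absolute log2FC was 0.10, beside 0.152 for all genes tested. In such bulk libraries a change in the share of cells that hold a transcript and a change in its amount per cell cannot be told apart.

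**Figure D1:**
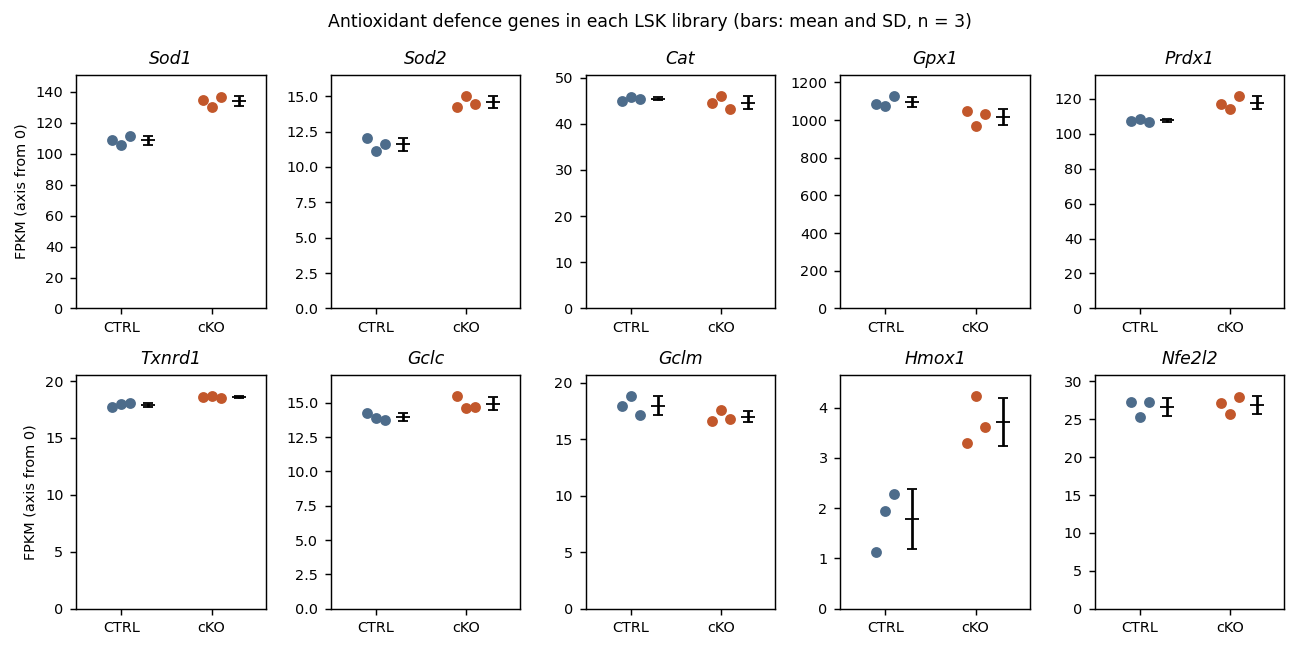
FPKM of the 10 antioxidant genes in each of the 3 CTRL and 3 cKO LSK libraries, one panel per gene, each axis starting at 0. Points are libraries and bars are the mean and SD of 3, and a gap between groups is seen for *Sod1*, *Sod2*, *Prdx1* and *Hmox1*, while *Nfe2l2*, *Cat* and *Gclm* overlap.

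The antioxidant genes covered a wide range of levels. On the FPKM scale, which divides by gene length, the CTRL means ran from 1.79 for *Hmox1* to 1096 for *Gpx1*. *Gpx1* stood above 99.5% of the genes tested and *Hmox1* above 12.3%. The order of the CTRL means was *Gpx1*, *Sod1*, *Prdx1*, *Cat*, *Nfe2l2*, *Gclm*, *Txnrd1*, *Gclc*, *Sod2* and *Hmox1*. Neighbours in this order were separated in every library except *Sod1* and *Prdx1*, and *Gclm* and *Txnrd1*, whose CTRL libraries overlapped. In cKO libraries *Sod1* lay above *Prdx1* and *Txnrd1* above *Gclm* in every library, and *Gclc* and *Sod2* overlapped. The lengths in the table are the union of all annotated exons, which for *Sod1* is 3970 bases against 641 in its principal transcript, and for *Prdx1* 3043 against 877. Divided by the principal transcript instead, the CTRL mean would be 673 for *Sod1*, 374 for *Prdx1* and 1474 for *Gpx1*. The ratio of mean FPKM of the same gene between groups is not touched by this choice of length. The log2FC, its test and the filter on low values are touched, as a constant is added to FPKM before the logarithm and the filter is set in FPKM. The fit was not repeated with the principal transcript lengths.

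The letters of the antioxidant response element are shown because NRF2 acts through it. *Gclm*, *Gclc*, *Txnrd1*, *Prdx1* and *Hmox1* are known as NRF2 targets with such elements, so how often the letters occur in these genes is a description and not an independent finding. RefSeq windows of 250 bases before to 50 bases after the gene start (GRCm38.p6) were searched on both strands for TGACNNNGC, and 8 of the 10 genes had a window. The letters were found for 5 of these 8 genes, where any window of a gene counted. Counted in the same way, 3781 of all 27025 genes with a window held them (14.0%). Of the other antioxidant pathway genes described below, 27 of 130 with a window held them (20.8%). Of all windows, 4071 of 32851 held them (12.4%). Each match is printed 5′ to 3′ on the strand that reads TGAC, with the 9 matching letters in capitals and 10 bases on each side.
*Gclm*, chr3:122245413-122245441, minus strand: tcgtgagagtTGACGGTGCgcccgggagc
*Txnrd1*, chr10:82859104-82859132, minus strand: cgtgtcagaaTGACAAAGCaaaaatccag
*Prdx1*, chr4:116685456-116685484, minus strand: ctacgggggaTGACTCAGCgctttccctg
*Sod1*, chr16:90220696-90220724, minus strand: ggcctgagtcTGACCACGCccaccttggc
*Nfe2l2*, chr2:75704885-75704913, minus strand: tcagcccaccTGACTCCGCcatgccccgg

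Distances are counted from the RefSeq start of each window, which can differ from the gene coordinates printed below. The window of *Sod2* lies inside its printed gene. The match lay 48 to 56 bases before the start of *Sod1* and 84 to 92 before 1 of 3 starts of *Txnrd1*. It lay 125 to 133 bases before *Prdx1*, 126 to 134 before *Gclm* and 232 to 240 before *Nfe2l2*. Only the match of *Nfe2l2* is on the strand of its gene. The *Prdx1* sequence also holds TGACTCA, the letters of an AP-1 site, which occur on either strand in 1709 of 32851 windows (5.20%). The windows of *Sod2*, *Cat* and *Gpx1* did not hold the letters. *Hmox1* and *Gclc* were not searched. Of the 5 genes with a match, *Sod1* and *Prdx1* were higher in cKO LSKs, and *Gclm*, *Txnrd1* and *Nfe2l2* were not called. Of the 3 without a match, *Sod2* was higher, *Gpx1* was lower and *Cat* was not called.

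Transcripts of the cytosolic and of the mitochondrial superoxide dismutase were both higher in cKO LSKs. *Sod1* (ENSMUSG00000022982, GRCm38 chr16:90220754-90226329, plus strand), the copper and zinc enzyme of the cytosol, was at 109, 106 and 111 FPKM in CTRL libraries and at 135, 130 and 137 FPKM in cKO libraries. All 3 cKO libraries lay above all CTRL libraries, and the gap between the groups was wider than the spread within either. The mean rose from 109 ± 2.80 to 134 ± 3.45 FPKM (SD, n = 3 in each group), a log2FC of 0.30 (SE 0.031, adjusted p = 5.7e-04). *Sod1* overlaps *Scaf4* on the minus strand, and whether counting used the strand is not stated. *Scaf4* itself was at 7.94 FPKM in CTRL and 8.24 FPKM in cKO (log2FC 0.05, adjusted p = 0.415).

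*Sod2* (ENSMUSG00000006818, chr17:13006846-13040063, plus strand), the manganese enzyme of the mitochondrial matrix, was at 12.0, 11.1 and 11.6 FPKM in CTRL libraries and at 14.2, 15.0 and 14.5 FPKM in cKO libraries. Again no cKO library reached down to a CTRL library. The mean rose from 11.6 ± 0.468 to 14.6 ± 0.420 FPKM, a log2FC of 0.31 (SE 0.042, adjusted p = 0.00184). The ratio of *Sod2* to *Sod1* in single libraries was 0.111, 0.105 and 0.104 in CTRL and 0.105, 0.115 and 0.106 in cKO. These ratios overlapped between the groups, with a difference in log2 ratio of 0.027 (exact permutation test, two-sided, p = 0.5). Without cKO replicate 2 the difference was -0.017. The copper chaperone *Ccs*, which loads SOD1 with its metal, rose from 46.0 to 51.7 FPKM (log2FC 0.17, adjusted p = 0.0125). *Sod3*, the extracellular enzyme, was listed at 0 in every CTRL library and stayed below the filter of 1 FPKM.

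The enzymes that remove hydrogen peroxide did not move together. *Cat* (ENSMUSG00000027187, chr2:103453849-103485160, minus strand), the catalase of peroxisomes, was at 45.0, 45.8 and 45.5 FPKM in CTRL libraries and at 44.5, 46.1 and 43.2 FPKM in cKO libraries. The cKO libraries spread to both sides of the CTRL libraries. The log2FC was -0.027, with a 95% interval from -0.10 to 0.048 (adjusted p = 0.530).

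*Gpx1* (ENSMUSG00000063856, chr9:108338903-108340343, plus strand), the cytosolic glutathione peroxidase, was at 1085, 1075 and 1128 FPKM in CTRL libraries and at 1045, 970 and 1033 FPKM in cKO libraries. The groups were separate, but the gap between the lowest CTRL and the highest cKO library was smaller than the spread within either group. The mean fell from 1096 ± 28.4 to 1016 ± 40.1 FPKM, a log2FC of -0.11 (SE 0.036, adjusted p = 0.0480). This call lay at the threshold and was lost in 9 of 18 alternatives, among them the removal of any single library (adjusted p from 0.0535 to 0.123). Of the other glutathione peroxidases, *Gpx4*, which reduces lipid peroxides, rose from 203 to 228 FPKM (log2FC 0.17, adjusted p = 0.0018), and *Gpx7* rose from 3.15 to 4.85 FPKM. *Gpx3*, the secreted enzyme, fell from 4.35 to 2.90 FPKM (log2FC -0.46).

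*Prdx1* (ENSMUSG00000028691, chr4:116685544-116700822, plus strand), a cytosolic thioredoxin-dependent peroxidase, was at 107, 109 and 107 FPKM in CTRL libraries and at 117, 114 and 122 FPKM in cKO libraries. The groups did not overlap, and the cKO libraries were the more spread of the groups. The mean rose from 108 ± 0.883 to 118 ± 3.78 FPKM, a log2FC of 0.13 (SE 0.030, adjusted p = 0.0153). The call was lost without CTRL replicate 1 (adjusted p = 0.0507), with quantile normalization (adjusted p = 0.0661) and with the trends of GC content and length removed beside a replicate block (adjusted p = 0.0659). Of the 5 other peroxiredoxins, *Prdx3*, the mitochondrial member, rose the most, from 88.3 ± 1.70 to 119 ± 4.49 FPKM (log2FC 0.42). *Prdx6* and *Prdx2* rose by log2FCs of 0.20 and 0.15, *Prdx5* fell from 114 to 99.4 FPKM, and *Prdx4* did not pass (log2FC 0.16, adjusted p = 0.0625).

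**Figure D2:**
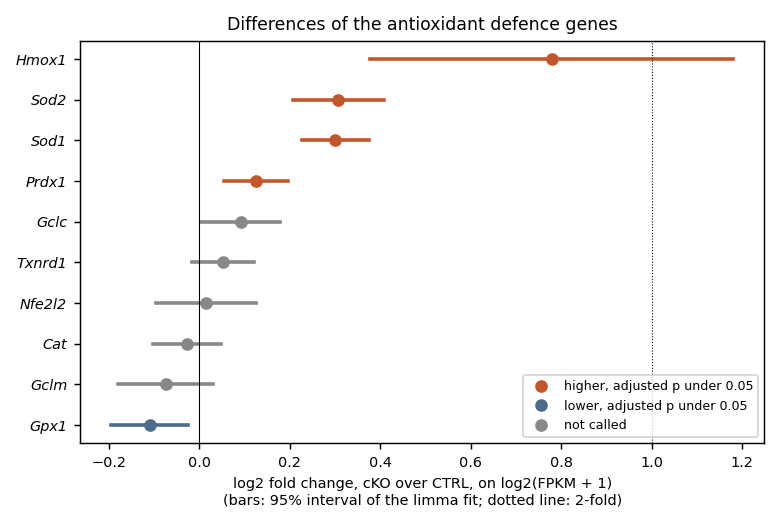
Log2 fold change (log2FC) of the 10 antioxidant genes, cKO over CTRL, on the scale of log2(FPKM + 1). Points are estimates and bars are 95% intervals of the limma fit, from 0.38 to 1.18 for *Hmox1* and from -0.20 to -0.024 for *Gpx1*, with intervals across 0 for *Txnrd1*, *Nfe2l2*, *Cat* and *Gclm*.

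Thioredoxin and glutathione depend on *Txnrd1*, *Gclc* and *Gclm*, none of which was called. *Txnrd1* (ENSMUSG00000020250, chr10:82833951-82897712, plus strand) encodes the cytosolic thioredoxin reductase, which passes electrons from NADPH to thioredoxin. It was at 17.7, 18.0 and 18.0 FPKM in CTRL libraries and at 18.6, 18.7 and 18.5 FPKM in cKO libraries. The groups were separate but close, with a log2FC of 0.053 and a 95% interval from -0.016 to 0.12 (adjusted p = 0.188). *Txnrd1* passed the test without moderation of the variance (adjusted p = 0.0220) and with the trends of GC content and length removed (log2FC 0.13, adjusted p = 0.0144, or 0.0488 with the replicate block added).

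*Gclc* (ENSMUSG00000032350, chr9:77754535-77794485, plus strand) encodes the catalytic subunit of glutamate-cysteine ligase, the rate-limiting enzyme of glutathione synthesis. It was at 14.2, 13.9 and 13.7 FPKM in CTRL libraries and at 15.5, 14.7 and 14.7 FPKM in cKO libraries. No cKO library overlapped with CTRL, but the log2FC of 0.091 did not pass the test (adjusted p = 0.0911). *Gclm* (ENSMUSG00000028124, chr3:122245557-122270732, plus strand) encodes the modifier subunit, which makes the ligase less sensitive to feedback by glutathione. It was at 17.9, 18.8 and 17.1 FPKM in CTRL libraries and at 16.6, 17.6 and 16.8 FPKM in cKO libraries. These values overlapped, with a log2FC of -0.075 and a 95% interval from -0.18 to 0.031 (adjusted p = 0.224).

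The subunits thus had estimates of opposite sign, neither of which passed the test. The ratio of *Gclm* to *Gclc* was 1.26, 1.35 and 1.25 in CTRL libraries and 1.07, 1.20 and 1.15 in cKO libraries. All 3 cKO ratios were below all CTRL ratios, and the mean went from 1.29 ± 0.0565 to 1.14 ± 0.0643. The difference in log2 ratio was -0.18 (exact permutation test, two-sided, p = 0.1), which is the smallest p that 3 libraries against 3 can give. With any single library left out the difference stayed between -0.21 and -0.13. The ratio was not computed with trends of GC content and length removed. In that setting the log2FC was -0.018 for *Gclm*, nearer to none than in the main fit, and 0.090 for *Gclc*.

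*Hmox1* (ENSMUSG00000005413, chr8:75093621-75100589, plus strand) encodes the enzyme that opens the haem ring to biliverdin, iron and carbon monoxide. It was at 1.12, 1.94 and 2.29 FPKM in CTRL libraries and at 3.29, 4.23 and 3.62 FPKM in cKO libraries. All 3 cKO libraries were above all CTRL libraries, and CTRL replicate 1 was the lowest of the 6. The mean rose from 1.79 ± 0.602 to 3.71 ± 0.475 FPKM, and the log2FC on the log2(FPKM + 1) scale was 0.78 (SE 0.168, adjusted p = 0.0112). That scale understates the change of so low a gene. With a pseudocount of 0.1 the log2FC was 1.07, and with voom on the recovered reads it was 1.13. The values rest on 39, 60 and 77 reads in CTRL and on 108, 135 and 118 reads in cKO, and *Hmox1* had the largest coefficient of variation of the 10 genes in both groups, 33.7% in CTRL and 12.8% in cKO. Without moderation of the variance its adjusted p was 0.0583.

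*Hmox2*, the constitutive haem oxygenase, was at 32.8 FPKM in CTRL and 33.0 FPKM in cKO (log2FC 0.0058, adjusted p = 0.913). Haem and iron genes other than *Hmox1* were called higher for 8 of 13 tested and lower for 2, beside 19.9% higher and 20.6% lower of all genes tested, with a median log2FC of 0.16. *Blvrb*, a biliverdin reductase of red cells, rose from 26.7 ± 1.13 to 42.9 ± 0.553 FPKM, and *Tfrc*, the transferrin receptor, rose from 16.3 to 23.9 FPKM. *Slc40a1*, the iron exporter ferroportin, rose from 1.11 to 1.96 FPKM. *Hfe* fell from 4.76 to 3.98 FPKM, and *Ftl1*, the ferritin light chain, fell from 464 to 427 FPKM (adjusted p = 0.0445).

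Markers of erythroid cells, which make haem, and of macrophages, which break it down, also differed between the groups. The summed level of 14 erythroid markers was 529 to 534 FPKM in CTRL and 953 to 990 FPKM in cKO libraries, of which *Car1* and *Car2* together made up 89.6% in CTRL and 87.2% in cKO. Of these markers 10 passed the filter, *Hbb-bs* and *Hba-a1* through the cKO group alone, and the other 8 rose. The late erythroid genes *Alas2*, *Slc4a1* and *Epb42* stayed below 1 FPKM, while *Hbb-bt* rose from 3.65 to 37.4 FPKM. The summed level of 12 macrophage markers was 31.5 to 33.5 FPKM in CTRL and 35.9 to 37.8 FPKM in cKO libraries. Of this sum, *Cd68* and *Cd163* together made up 81.3% in CTRL and 63.3% in cKO. Their mean sum went the other way, from 26.5 FPKM in CTRL to 23.3 FPKM in cKO. *Adgre1* (F4/80) passed the filter through the CTRL group alone and *C1qc* through the cKO group alone. Of the other 5 macrophage markers tested 3 rose, among them *Slc40a1* of the haem and iron genes, and 1 fell. *C1qa* rose from 1.04 to 4.24 FPKM and *C1qb* from 1.04 to 3.90 FPKM, while *Adgre1* was at 1.56 FPKM in CTRL and 0.590 FPKM in cKO, and *Mertk*, *Mrc1* and *Siglec1* were all under 0.1 FPKM. The part of these markers in the *Hmox1* result was not tested.

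**Figure D3:**
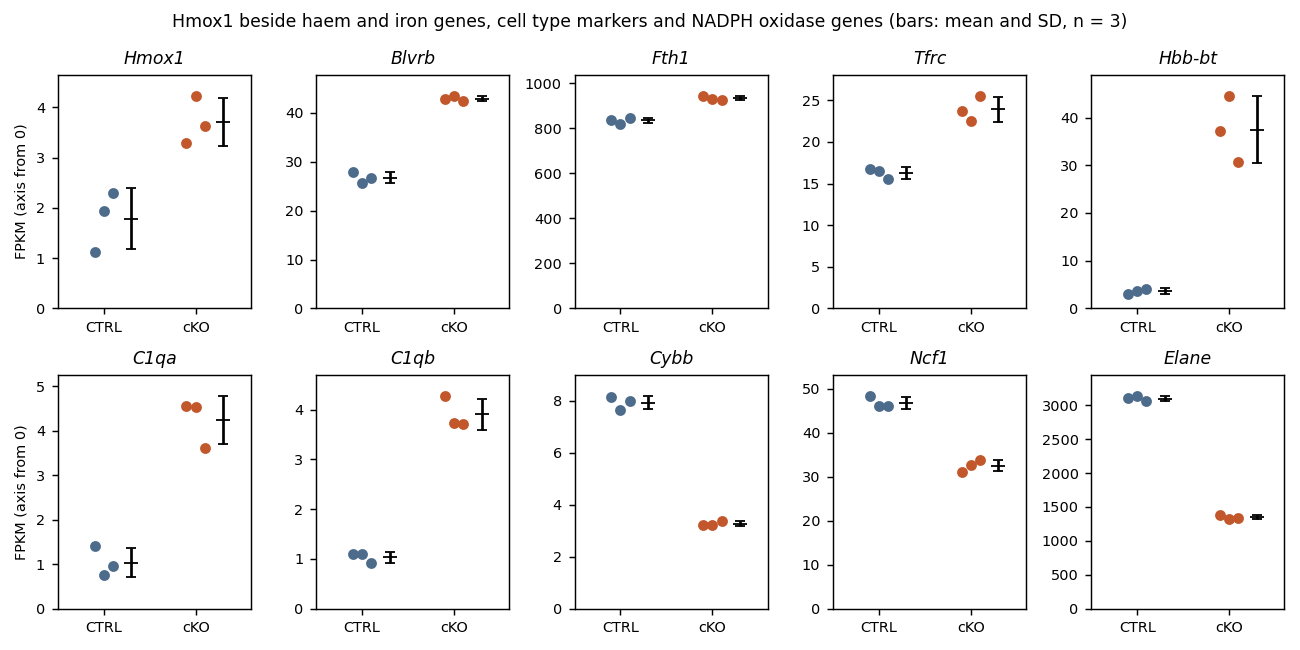
FPKM of *Hmox1* in each library beside haem and iron genes (*Blvrb*, *Fth1*, *Tfrc*), an erythroid marker (*Hbb-bt*), macrophage markers (*C1qa*, *C1qb*), NADPH oxidase genes (*Cybb*, *Ncf1*) and a granule gene (*Elane*), with each axis starting at 0. Points are libraries and bars are the mean and SD of 3, and *Hmox1*, *Hbb-bt* and *C1qa* are higher in all 3 cKO libraries while *Cybb*, *Ncf1* and *Elane* are lower. The macrophage markers *Cd68* and *Cd163*, which made up most of the macrophage sum, are not shown.

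Cell type markers moved with the other antioxidant genes as well. The summed level of 14 neutrophil and monocyte markers was 11070 to 11105 FPKM in CTRL and 6147 to 6255 FPKM in cKO libraries, and 11 of 12 tested fell, *Elane* from 3096 to 1346 FPKM. Of 10 megakaryocyte markers, all 6 tested rose, from a sum of 89.8 to 92.0 FPKM to a sum of 172 to 179 FPKM, with *Gp1bb* listed at 0 in every library. Mast cell and basophil markers summed to 143 to 155 FPKM in CTRL and to 206 to 215 FPKM in cKO libraries, and 6 of 8 tested rose, of which *Cma1* and *Fcer1a* passed the filter on low values through the cKO group alone. The sums of LSK markers were 343 to 348 FPKM in CTRL and 348 to 378 FPKM in cKO libraries, with 3 of 8 tested higher and 1 lower. Those of B and plasma cell markers were 132 to 137 and 154 to 159 FPKM, with 3 of 6 tested higher and 2 lower. *Cd79a* passed the filter through the cKO group alone, and of the other 5, 2 were higher and 2 lower. The sums of T and NK cell markers were 365 to 378 FPKM in CTRL and 334 to 338 FPKM in cKO libraries. Of 3 tested, however, 2 were higher and 1 was lower, with a median log2FC of 1.49. *Nkg7* was the 1 that was lower and made up most of that sum, with a mean of 353 FPKM in CTRL, while *Cd3e* averaged below 1 FPKM in both groups. The part of these markers in the calls of *Sod1*, *Sod2*, *Prdx1* and *Gpx1* was not tested.

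*Nfe2l2* (ENSMUSG00000015839, chr2:75675513-75704641, minus strand), which encodes NRF2, was at 27.2, 25.2 and 27.3 FPKM in CTRL libraries and at 27.1, 25.6 and 27.9 FPKM in cKO libraries. The groups overlapped almost entirely, with means of 26.6 ± 1.17 and 26.9 ± 1.16 FPKM. The log2FC was 0.015, with a 95% interval from -0.096 to 0.13 (adjusted p = 0.824), and its sign changed with the scaling. A difference in transcript beyond this interval was not seen, and NRF2 protein was not measured. *Keap1*, which holds NRF2 for degradation, was at 20.0 FPKM in CTRL and 20.1 FPKM in cKO (adjusted p = 0.979), and *Cul3* was at 19.9 and 20.4 FPKM (adjusted p = 0.593).

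Of 12 regulators and partners of NRF2 tested, 5 fell (41.7%, beside 20.6% of all genes tested) and 1 rose (8.33%, beside 19.9%), with a median log2FC of -0.11. *Maff*, a small MAF protein, fell from 6.38 ± 0.498 to 2.39 ± 0.525 FPKM (log2FC -1.13, adjusted p = 5.3e-04). *Bach1*, the haem-regulated repressor of *Hmox1*, fell from 5.94 ± 0.608 to 4.34 ± 0.195 FPKM (log2FC -0.37, adjusted p = 0.00707). *Nfe2l1*, a relative of NRF2, fell from 17.3 to 14.4 FPKM, and *Rbx1*, the RING subunit of the CUL3 ligase, rose from 31.9 to 36.2 FPKM.

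Other NRF2 target enzymes moved in both directions. Of 16 tested beside the 10 genes, 5 rose and 7 fell, with a median log2FC of 0.016. For this list and those that follow, 19.9% of all genes tested were higher and 20.6% lower. *Gsta4*, a glutathione S-transferase that acts on products of lipid peroxidation, rose from 2.25 ± 0.0873 to 7.12 ± 0.681 FPKM (log2FC 1.32), and *Blvrb* and *Gstp1* rose as well, *Gstp1* from 162 to 200.5 FPKM. *Gstm1* fell from 251 ± 5.90 to 151 ± 3.41 FPKM (log2FC -0.72), *Gsr*, the glutathione reductase, fell from 78.6 to 54.2 FPKM (log2FC -0.53), and *Ugdh* fell from 8.01 to 5.30 FPKM. *Nqo1*, a widely used readout of NRF2 activity, was at 5.12 FPKM in CTRL and 5.33 FPKM in cKO (adjusted p = 0.617). The list of targets comes from general knowledge of NRF2 and was not derived from these cells.

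Glutathione genes other than *Gclc* and *Gclm* were called higher for 5 of 10 tested and lower for 2. *Chac2* and *Ggct*, which break down glutathione and its products, rose from 3.77 to 6.14 FPKM and from 2.28 to 2.95 FPKM, and *Glrx5*, a mitochondrial glutaredoxin of iron-sulfur cluster assembly, rose from 46.7 to 59.6 FPKM. *Gsr*, already named, and the glutaredoxin *Glrx* fell, *Glrx* from 13.3 to 10.6 FPKM. Of 17 glutathione S-transferases tested, 4 rose and 5 fell. *Gstp3* rose by a log2FC of 1.0 from 4.01 FPKM, and *Gstm5* rose from 27.1 to 37.0 FPKM, whereas *Mgst1*, a membrane-bound transferase, fell from 29.1 to 13.1 FPKM and *Gstm4* from 17.7 to 13.3 FPKM. Glutathione S-transferases and *Gpx4* have near-identical relatives or pseudogenes, between which reads may have been split.

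In the thioredoxin system, 8 of 17 genes tested beside *Txnrd1* rose and 4 fell, with a median log2FC of 0.19, and without *Msrb3* 7 of 16 rose. *Msrb3*, a methionine sulfoxide reductase, was at 0.687 FPKM in CTRL and 2.35 FPKM in cKO and passed the filter through the cKO group alone. *Txnip*, the thioredoxin-binding protein, rose from 59.1 ± 0.211 to 79.2 ± 2.15 FPKM, and *Txndc17* rose from 44.6 to 55.3 FPKM. *Msrb1*, the selenium-containing relative of *Msrb3*, fell from 102 to 69.0 FPKM, *Nxn* fell from 20.8 to 16.7 FPKM and *Txndc12* fell from 30.6 to 25.4 FPKM. Cytosolic thioredoxin itself, *Txn1*, was chosen after its values were seen and rose from 355 ± 8.19 to 405 ± 8.61 FPKM (log2FC 0.19, adjusted p = 0.00234).

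Antioxidant enzymes draw on NADPH, which oxidases spend to make superoxide. Of 13 NADPH genes tested, 6 fell and 3 rose. *Idh1*, the cytosolic isocitrate dehydrogenase, fell from 40.2 ± 0.625 to 18.8 ± 1.55 FPKM (log2FC -1.06), *Aldh1l1* fell from 2.04 to 1.35 FPKM, and *G6pdx*, the entry enzyme of the pentose phosphate pathway, fell from 42.6 to 34.5 FPKM. *Mthfd1*, *Mthfd2* and *Nadk2* rose by log2FCs of 0.27, 0.16 and 0.13. Of 8 NADPH oxidase genes tested, 6 fell and 2 were not called. *Cybb*, the catalytic subunit of the phagocyte oxidase, fell from 7.93 ± 0.255 to 3.28 ± 0.0994 FPKM, *Ncf1* fell from 46.8 to 32.5 FPKM and *Ncf4* fell from 80.7 to 60.0 FPKM, while *Cyba* was at 159 FPKM in CTRL and 161 FPKM in cKO (adjusted p = 0.723). These oxidase genes are also expressed by myeloid cells, whose markers fell in the same libraries, and the part of those markers was not tested.

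Over all 133 pathway genes tested beside the 10 antioxidant genes, 38 rose, 41 fell and 54 were not called, with a median log2FC of 0.0058. These are shares of 28.6% higher and 30.8% lower, beside 19.9% and 20.6% of all genes tested. The libraries of the groups were separate for 93 of the 133 (69.9%), beside 54% of all genes tested. Of the 133, *Msrb3* and *Gstt1* averaged under 1 FPKM in 1 group.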

How the data were processed

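RNA of sorted LSK cells was made into TruSeq libraries, 3 per group. The authors deposited FPKM values with gene lengths for 54532 genes. The submitters' processing notes name HISAT2 2.0.5 and mm10, and the counting program is not given in the sources used here. Multiplied by gene length and scaled by a library size inferred from the values themselves, 100% of the values came out as whole numbers of reads (tolerance 0.01). Of the gene IDs, 54409 matched GENCODE M21 (GRCm38), and 53499 had equal coordinates there.

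The 11552 genes that averaged 1 FPKM or more were tested on log2(FPKM + 1) with limma 3.58.1 (R 4.3.3; lmFit, eBayes with a trend, two-sided), with Benjamini-Hochberg adjustment over all genes tested, and were called at an adjusted p under 0.05. "Rose", "fell", "higher" and "lower" of genes refer to these calls, and intervals are not adjusted. This test was checked on simulated data, in which every change set in was larger than those of *Sod1*, *Sod2*, *Prdx1* and *Gpx1*. How well it finds changes as small as these was not checked. Ratios were compared by exact permutation (scipy 1.17.1). Alternatives were a pseudocount of 0.1, no filter or a mean of 5 FPKM, median-of-ratios, quantile or TPM scaling, other variance moderation, a replicate block, leaving out each library, voom on the recovered reads, removal of GC and length trends, and the thresholds of more than 2-fold with unadjusted p under 0.05.

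The 10 genes and all lists were chosen with earlier results of these data known. All members were described, with at most 3 called genes per direction of each pathway list and at most 3 genes of each cell type list. Other genes were added after their values were seen: *Keap1*, *Cul3*, *Nqo1*, *Hmox2*, *Prdx4*, *Sod3*, *Cyba*, *Scaf4*, *Txn1*, *Fth1*, *Atm* and further cell type markers. The numbers of the LSK sets were not used to pair the samples in the main fit, and whether they mark pairs is not stated.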

Additional observations from a re-analysis of the deposited data

How the results depend on the processing

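*Sod1* and *Sod2* were called higher in all 18 alternatives, and *Cat*, *Gclc* and *Gclm* in none. At more than 2-fold with an unadjusted p under 0.05, the counts were 0 of the 10 genes higher and 0 lower, 2 other pathway genes higher and 4 lower, and 165 of all genes higher and 81 lower. These counts are on log2(FPKM + 1), where *Hmox1* was at 0.78, whereas its log2 fold change was 1.07 with a pseudocount of 0.1. *Gpx1* was the 1 gene called lower, and the count was 0 without a filter on low values (adjusted p = 0.149), without moderation of the variance, with moderation without a trend, and in all fits without 1 library (range 0 to 0). Leaving out 1 library gave 3 to 4 of the 10 genes higher, 29 to 35 other pathway genes higher and 33 to 37 lower, and 1784 to 2043 of all genes higher and 1758 to 2065 lower, with fewer samples in the fit. *Nfe2l2* reversed sign with TPM scaling (-0.0057), without CTRL replicate 2 (-0.021) and without cKO replicate 3 (-0.012), the highest value without a library being 0.048. The difference in log2 ratio of *Sod2* to *Sod1* ranged from -0.017, which is reversed, to 0.054 without 1 library. *Hmox1* was not tested at a mean of 5 FPKM, and its log2 fold change went from 0.59 to 0.91 without 1 library. The log2 fold change of *Myh9* was -0.13 with GC and length trends removed (limma, adjusted p = 0.0428). With a replicate block added it was also -0.13 (adjusted p = 0.0720). The same LSK set numbers did not deviate together (r from -0.026 to -0.0046). Whether the sets were paired by litter or by sort is not stated, and these correlations cannot show it. The replicate block alone gave 4 of the 10 genes higher and 1 lower, 38 other pathway genes higher and 37 lower, and 2063 of all genes higher and 2044 lower. The cause of these changes was not tested.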

Other observations

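Stress genes that act upstream of antioxidant defence in stem cells were also measured. Of 12 FOXO, ATM and sestrin genes tested, 4 fell (33.3%, beside 20.6% of all genes tested) and 8 were not called, with a median log2 fold change of -0.13. *Foxo3*, a transcription factor known to drive *Sod2* and *Cat*, fell from 10.4 ± 0.344 to 8.23 ± 0.217 FPKM (log2FC -0.30, adjusted p = 0.00180), in the same libraries in which *Sod2* was higher and *Cat* was not called. *Tigar*, which diverts sugar to the pentose phosphate pathway, fell from 4.74 to 3.58 FPKM, and *Foxo4* fell from 12.3 to 10.1 FPKM. *Atm* was at 1.73 FPKM in CTRL and 1.78 FPKM in cKO (adjusted p = 0.765).

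Peroxisome genes build the compartment of catalase. Of 18 tested, 2 rose and 4 fell (33.3% called, beside 40.5% of all genes tested), with a median log2 fold change of 0.011. *Pex11a*, a factor of peroxisome division, rose from 1.57 ± 0.124 to 3.76 ± 0.402 FPKM (log2FC 0.88), and *Pex16* rose from 19.8 to 22.8 FPKM. *Pex6*, an ATPase of peroxisomal import, fell from 23.1 to 17.2 FPKM, *Hsd17b4* fell from 25.1 to 21.0 FPKM and *Pex26* fell from 3.98 to 3.43 FPKM.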
